A study of Mus musculus with 8 samples.

Results

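Milk protein genes were followed in sorted mammary tumor cells of the mouse. The set held 10 genes, namely the caseins Csn1s1, Csn1s2a, Csn1s2b, Csn2 and Csn3, and Wap, Lalba, Glycam1, Btn1a1 and Xdh, out of 53697 genes in the deposited count table. They were taken by name as known milk genes, with no measured value in the rule, and all 10 were among the 18322 genes with enough counts to be tested.

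The tumors arose in MMTV-PyMT mice, in which the polyoma middle T oncogene is driven by the mouse mammary tumor virus promoter, and all animals were on a C57BL/6 background. PyMT-Dll1GFP mice (MMTV-PyMT, Dll1-GFP) carried a GFP knock-in at the Notch ligand gene Dll1, and PyMT-Dll1mCh mice (MMTV-PyMT, Dll1-mCherry) carried a BAC-based mCherry reporter. Cells positive for CD45, CD31 or Ter119 were depleted. The remaining tumor cells of each mouse were sorted into a reporter-positive (Dll1+) and a reporter-negative (Dll1-) population. There were 2 mice for each reporter, 4 in all, which gave 8 libraries. Age, stage of the estrous cycle and parity were not in the labels, and the reporter was confounded with the mouse, so that reporter, strain construction and individual animal cannot be told apart between the 2 kinds of mice.

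Library totals ranged from 27301396 to 123907626 estimated counts. Values are given as CPM, counts divided by the TMM-scaled library total in M. Dll1, the sorted gene, was 7.61, 13.7, 34.7 and 50.3 CPM in the Dll1- libraries and 87.5, 138, 203 and 250.2 CPM in the Dll1+ libraries, so the sort labels held in every mouse. Epcam, an epithelial surface marker, lay between 899 and 1240 CPM. Pecam1 (CD31) was 13.7 to 14.3 CPM in the PyMT-Dll1GFP libraries and 24.1 to 98.2 CPM in the PyMT-Dll1mCh libraries. Ptprc (CD45) was 2.88 to 4.39 and 5.32 to 12.7 CPM, respectively.

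Caseins are the main proteins of milk and are carried out of the alveolar cell as micelles, while whey acidic protein (Wap) and alpha-lactalbumin (Lalba) stay in solution. Their genes are classical targets of prolactin, which acts through its receptor, the kinase Jak2 and the transcription factor Stat5, together with glucocorticoid receptor and Elf5. Some of them are already read at a low level in luminal progenitor cells of the virgin gland, before any milk is made.

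The 5 casein genes sit side by side on chromosome 5 of GRCm38, from Csn1s1 (chr5:87666208-87682578, plus strand) through Csn2 (chr5:87692624-87699630, minus strand), Csn1s2a (chr5:87774567-87788797, plus strand) and Csn1s2b (chr5:87808082-87824426, plus strand) to Csn3 (chr5:87925579-87932665, plus strand), a span of 266 kb. The other members lie apart, at chr11:6635482-6638637 for Wap, chr15:98480400-98482721 for Lalba, chr15:103562759-103565081 for Glycam1, chr13:23456992-23465901 for Btn1a1 and chr17:73883895-73950196 for Xdh, all on the minus strand.

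RefSeq promoter windows of GRCm38.p6, 250 bases before to 50 after a gene's start, were read for 6 of the 10 members (Csn1s1, Csn1s2a, Csn2, Wap, Lalba and Glycam1). They were searched for TTCNNNGAA, the palindrome that Stat5 and its relatives recognise, which reads the same on both strands. It was found in 4 of the 6 windows, against 8.30% of all 32851 windows of that length. The 6 windows held 32.33% to 50.33% G and C, against a median of 52.67% over all windows. The share over all windows was thus not matched for base content. The matches are shown because Stat5 is the pathway's transcription factor. Each line runs 5′ to 3′ on the gene's strand, with the palindrome in capitals, at chr5:87666099-87666125 for Csn1s1, chr5:87774461-87774487 for Csn1s2a, chr5:87699501-87699527 for Csn2 and chr15:103565209-103565235 for Glycam1.
Csn1s1: ttgtaacaaTTCTTAGAAtttatgtaa
Csn1s2a: tatagtgctTTCTTAGAAttacaatga
Csn2: cacgtagacTTCTTGGAAttgaaggga
Glycam1: ccaactcatTTCCCAGAAacaccaatt
Counted from the RefSeq start of each gene, the palindrome began 100 bases before it in Csn1s1, 93 before it in Csn2 and 145 before it in Glycam1, and 20 bases past it in Csn1s2a. For Csn1s1 and Glycam1 this start is the end of the gene given above. For Csn2 and Csn1s2a RefSeq starts the gene 205 and 117 bases away from it, so that from the outermost GENCODE start the match began 112 bases inside Csn2 and 97 bases before Csn1s2a. The windows of Wap and Lalba held no match. The letters TATAAA, searched on the gene's strand, were in none of the 6 windows and in 8.32% of all windows. These are matches of letters, and binding was not measured.

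The genes differed widely in level. Levels between genes are compared as TPM, in which counts are divided by the merged exon length of the gene. Csn3 (kappa-casein, which coats the micelle) stood first, with 5287 ± 2195 TPM (SD, n = 8 libraries), and by counts it ranked between 2 and 10 among all genes of a library. Lalba, the regulatory subunit of lactose synthase, followed with 1556 ± 807 TPM. Both orders held in 8 of 8 libraries.

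Xdh (xanthine dehydrogenase/oxidoreductase, a structural protein of the milk fat globule) had 120.3 ± 50.1 TPM, Wap 93.9 ± 56.6 TPM, Csn1s1 (alpha-S1-casein) 56.6 ± 35.8 TPM and Btn1a1 (butyrophilin, a membrane partner of Xdh at the fat globule) 50.7 ± 20.5 TPM. These neighbours overlapped. Xdh was above Wap in 5 of 8 libraries, Wap above Csn1s1 in 6 and Csn1s1 above Btn1a1 in 3. With the longest transcript as the length in place of the merged exons, Csn1s1 moved from rank 5 to rank 3.

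Csn2 (beta-casein) had 14.1 ± 15.7 TPM, Csn1s2a (an alpha-S2-casein) 7.92 ± 7.07 TPM, Glycam1 (a mucin-like whey glycoprotein) 2.71 ± 2.99 TPM and Csn1s2b 0.697 ± 0.116 TPM. For Csn2 and Glycam1 the SD exceeded the mean. Csn1s2b varied least, between 0.532 and 0.930 TPM, and rested on 28 to 121 counts per library. Csn3 therefore made up 84.8% to 91.4% of the counts of all 10 genes, which together took 0.530% to 1.40% of a library.

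**Figure D1:**
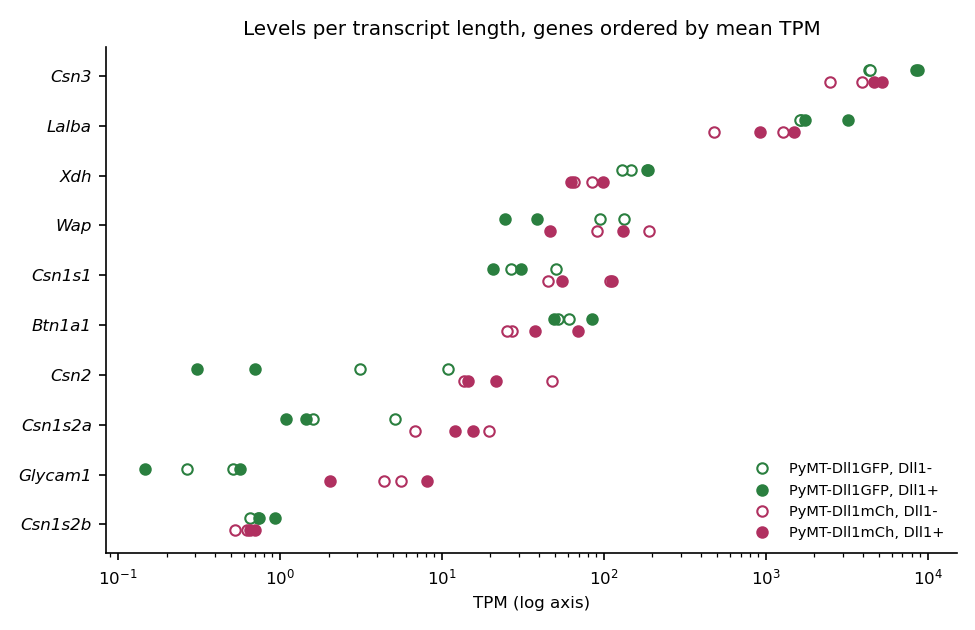
TPM of each milk protein gene (horizontal log axis) in the 8 libraries, with genes ordered by mean TPM. Green points are PyMT-Dll1GFP and red points PyMT-Dll1mCh, open for Dll1- and filled for Dll1+ libraries. Csn3 and Lalba lie above all others in every library, and Csn2, Csn1s2a and Glycam1 spread most, with the PyMT-Dll1mCh libraries to the right.

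The first comparison asked how Dll1+ tumor cells differed from Dll1- cells of the same mouse. Over the 4 mice, milk protein genes did not move as a block. Csn3 was 1.80-fold higher in Dll1+ cells, Wap pointed the opposite way without passing the threshold, and the median log2 fold change of the 10 genes was 0.07 against -0.00068 over all tested genes. In edgeR's quasi-likelihood test with the mouse as a block and Benjamini-Hochberg adjustment, 1 of the 10 genes passed the threshold of 0.05, and 14.0% of all tested genes did.

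Csn3 was 6427, 6424, 4464 and 6717 CPM in the Dll1- libraries of PyMT-Dll1GFP mice 1 and 2 and PyMT-Dll1mCh mice 1 and 2, and 12052, 12957, 8503 and 9741 CPM in their Dll1+ libraries. All 4 Dll1+ libraries lay above all 4 Dll1- libraries. The ratio within a mouse was 1.88, 2.02, 1.90 and 1.45, which the fit put at 0.85 ± 0.12 on the log2 scale (SE, adjusted p = 0.0119). As these are bulk samples, a larger share of cells that express a gene and more RNA per cell cannot be told apart. The 5 luminal progenitor markers moved with it, at a summed 262 to 555 CPM in Dll1- and 477 to 993 CPM in Dll1+ libraries, with 4 of the 5 called higher (Tspan8, Kit, Cd14 and Aldh1a3). Of 7 basal and myoepithelial markers 3 were called higher (summed 141 to 645 against 225 to 1481 CPM), and of 5 hormone-sensing luminal markers 4 were called lower (87.5 to 217 against 37.9 to 61.4 CPM). Their part in the Csn3 difference was not tested. Csn3 was no longer called when PyMT-Dll1GFP mouse 1 or 2 or PyMT-Dll1mCh mouse 1 was left out (log2 fold changes 0.83, 0.79 and 0.82). Of all tested genes, 254, 410 and 198 were called higher in those fits and 179, 369 and 207 lower. With 4 mice 1279 were called higher and 1289 lower.

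Wap was 48.2, 33.2, 82.2 and 37.6 CPM in the Dll1- libraries, and 13.5, 8.86, 58.4 and 21.2 CPM in the Dll1+ libraries of the same mice. It was lower in Dll1+ cells of 4 of 4 mice, by 3.57-fold and 3.75-fold in the PyMT-Dll1GFP mice and by 1.41-fold and 1.77-fold in the PyMT-Dll1mCh mice, although the groups overlapped. Over the 4 mice its log2 fold change was -1.25 ± 0.29 (SE, adjusted p = 0.0517).

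Lalba was 456, 441, 157 and 403 CPM in Dll1- and 859, 479, 311 and 522 CPM in Dll1+ libraries. The Dll1+ library was the higher one in each mouse, and the groups overlapped. The fitted log2 difference was 0.60 ± 0.16 (SE, adjusted p = 0.0658). Xdh took a small step in the same direction in each mouse, from 484, 419, 332 and 247 CPM in Dll1- to 590.4, 604, 398 and 259 CPM in Dll1+ cells (log2 fold change 0.29 ± 0.09, adjusted p = 0.0860). Csn3, Lalba and Xdh were thus higher and Wap lower in every mouse, 4 of 10 genes with the same direction in 4 mice, where 41.3% of all tested genes had one.

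**Figure D2:**
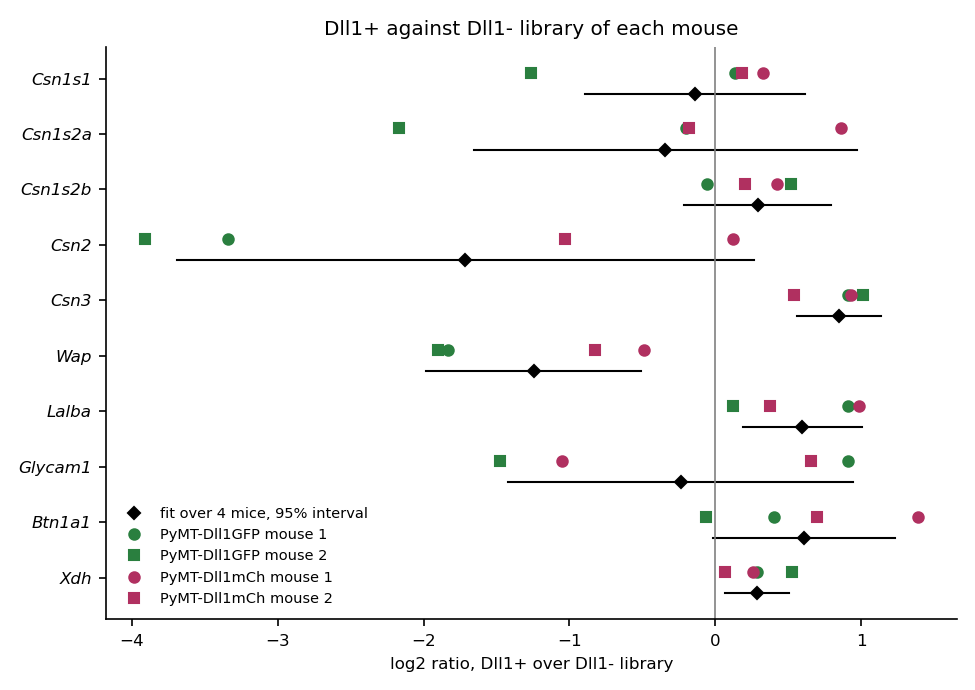
Log2 ratio of the Dll1+ over the Dll1- library (horizontal axis) for each milk protein gene, 1 point per mouse, with the edgeR estimate over 4 mice as a black diamond and its 95% interval as a line. The 4 points lie right of 0 for Csn3, Lalba and Xdh and left of 0 for Wap, and the PyMT-Dll1GFP mice lie farthest left for Csn2 and Wap.

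Within the PyMT-Dll1GFP mice, 3 of the 10 genes were called (9.13% of all tested genes were). Wap fell by 1.87 on the log2 scale (SE 0.11, adjusted p = 0.00270), Csn2 fell by 3.77 (SE 0.45, adjusted p = 0.0236) and Csn3 rose by 0.96 (SE 0.15, adjusted p = 0.0176). Csn2 went from 7.78 and 26.4 CPM in Dll1- cells to 0.732 and 1.72 CPM in Dll1+ cells, a 10.6-fold and a 15.3-fold step, and the Dll1+ values rested on 21 and 77 counts. So 2 caseins of the same cluster, Csn2 and Csn3, moved in opposite directions in the same cells. With PyMT-Dll1GFP mouse 1 or 2 left out, the comparison rests on 1 mouse, so only sizes are given. Over 10 alternative fits, these among them, the log2 fold changes ranged from -1.90 to -1.83 for Wap, -3.93 to -3.40 for Csn2 and 0.91 to 1.02 for Csn3.

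Within the PyMT-Dll1mCh mice, 3 genes were called as well (11.8% of all tested genes). Wap fell by 0.65 on the log2 scale (SE 0.11, adjusted p = 0.0184). Csn3 rose by 0.73 (SE 0.15, adjusted p = 0.0345), and Btn1a1 rose by 1.05 (SE 0.21, adjusted p = 0.0471). Btn1a1 was 47.7 and 42.9 CPM in Dll1- and 125 and 69.5 CPM in Dll1+ cells of these mice, against 90.2 and 75.3, then 119 and 72.0 CPM in the PyMT-Dll1GFP mice, where the log2 fold change was 0.17 ± 0.21 (adjusted p = 0.678). Markers of other cells moved in the same comparison. Of 19 tested fibroblast, endothelial, immune, adipocyte and erythroid markers, 12 were called lower in Dll1+ cells of these mice, among them 3 of 6 fibroblast, 4 of 4 immune and 4 of 4 erythroid markers, and the summed fibroblast level was 7426 and 21349 CPM in Dll1- against 2978 and 3231 CPM in Dll1+ cells. In PyMT-Dll1GFP mice edgeR called none of the 19 (2 had an unadjusted p under 0.05). The part of these markers in the milk gene differences was not tested. The calls within PyMT-Dll1mCh mice were sensitive to the fit. When these 4 libraries were fitted alone, edgeR called none of the 10 genes (4 had an unadjusted p under 0.05). That fit called 0 of all 19945 genes it tested, so its lack of calls is not particular to the milk genes. Over 10 alternative fits, those with a mouse left out among them, the called genes kept their sign. Their log2 fold changes ranged from -0.85 to -0.52 for Wap, 0.51 to 0.90 for Csn3 and 0.67 to 1.36 for Btn1a1.

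Csn2 did not follow the PyMT-Dll1GFP pattern clearly in these mice. It was 40.6 and 137 CPM in Dll1- and 44.1 and 67.1 CPM in Dll1+ cells, with a log2 fold change of -0.45 ± 0.31 (adjusted p = 0.412). The difference between the reporters in the Dll1+ effect was tested directly. It was 3.32 ± 0.55 on the log2 scale for Csn2 (adjusted p = 0.163) and 1.22 ± 0.15 for Wap (adjusted p = 0.0596). None of the 10 genes passed in edgeR, with 3 at an unadjusted p under 0.05, and 0.0710% of all tested genes passed. DESeq2 called 2, Wap and Csn2, where it called 123 of all 18322 genes higher and 417 lower. Over 9 alternative fits, those with a mouse left out among them, the difference ranged from 2.74 to 3.86 for Csn2 and from 1.01 to 1.34 for Wap.

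The remaining genes did not pass in Dll1+ against Dll1- cells of either reporter. Csn1s1 was 60.3, 111, 121 and 280.4 CPM in Dll1- and 66.3, 46.2, 152 and 318 CPM in Dll1+ cells, higher in 3 of 4 mice. Csn1s2a had log2 fold changes of -1.32 ± 0.63 in the PyMT-Dll1GFP and 0.34 ± 0.50 in the PyMT-Dll1mCh mice. Csn1s2b lay between 0.969 and 1.41 CPM throughout, with a 95% interval of the fold over 4 mice from 0.863 to 1.73. Glycam1 had a fold interval from 0.374 to 1.93.

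**Figure D3:**
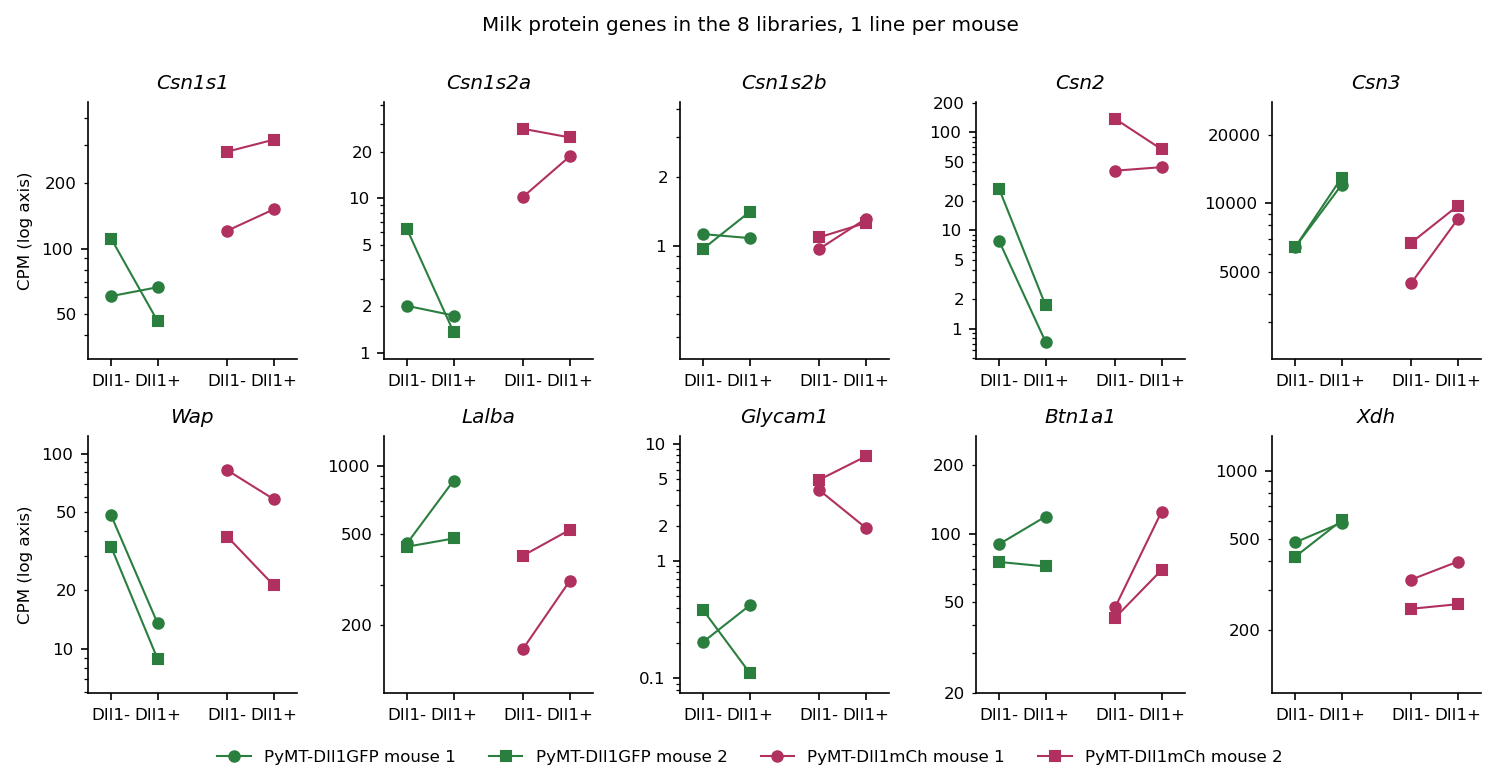
CPM (vertical log axis, each panel with its own range) of the 10 milk protein genes in the 8 libraries. Lines join the Dll1- and Dll1+ library of a mouse, green for PyMT-Dll1GFP and red for PyMT-Dll1mCh. Csn3 rises and Wap falls along every line, and the red points of Csn1s1, Csn1s2a, Csn2 and Glycam1 lie above all green ones.

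The second comparison set the 2 reporters against each other in cells of the same sorted Dll1 status. Dll1 itself was not level between them. In edgeR it was 3.98-fold higher in PyMT-Dll1mCh among Dll1- cells (adjusted p = 0.00724) and 2.01-fold higher among Dll1+ cells (adjusted p = 0.0616). Among the milk genes 4, Csn1s1, Csn1s2a, Csn2 and Glycam1, were higher in all 4 PyMT-Dll1mCh libraries than in any PyMT-Dll1GFP library, and Xdh was lower in all 4. That makes 5 of 10 genes without overlap, where 43.4% of all tested genes had none. In Dll1- cells edgeR called 3 of the 10 genes (36.6% of all tested genes), all higher in PyMT-Dll1mCh, and in Dll1+ cells 5 (30.6% of all tested genes), 4 higher and 1 lower. Glycam1, called in both, carries the limit of the count filter given below. The median log2 fold change of the 10 genes was 0.26 in Dll1- and 0.94 in Dll1+ cells, against 0.01 and 0.07 over all tested genes.

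Csn2 showed the largest difference of the 10 genes in Dll1+ cells. It was 0.732 and 1.72 CPM in the PyMT-Dll1GFP and 44.1 and 67.1 CPM in the PyMT-Dll1mCh libraries, a 43.4-fold difference with a 95% interval from 9.54 to 198 (adjusted p = 0.00872). In Dll1- cells it was 7.78 and 26.4 against 40.6 and 137 CPM, a 5.18-fold difference (95% interval 1.48 to 18.2, adjusted p = 0.0488). The wide intervals go with a spread of 3.40-fold and 3.37-fold between the 2 mice of a group in Dll1- cells.

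Csn1s2a behaved alike in direction. It was 2.01 and 6.27 against 10.2 and 28.1 CPM in Dll1- cells, 4.59-fold higher in PyMT-Dll1mCh (adjusted p = 0.0353), and 1.74 and 1.36 against 18.6 and 24.7 CPM in Dll1+ cells, 14.0-fold higher (adjusted p = 0.0106). Csn1s1 passed in Dll1+ cells alone, at 4.18-fold (66.3 and 46.2 against 152 and 318 CPM, adjusted p = 0.0316), and had a log2 fold change of 1.23 ± 0.53 in Dll1- cells (adjusted p = 0.116). Whether the reporter difference itself depended on Dll1 status is the test of the difference given above.

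Glycam1 was close to the limit of detection in the PyMT-Dll1GFP mice. Its 4 libraries held 6, 11, 12 and 5 counts (0.205, 0.381, 0.418 and 0.112 CPM), above the floor of 3 counts, while the PyMT-Dll1mCh libraries held 502, 149, 126 and 432 counts (4.02, 4.92, 1.92 and 7.77 CPM). The difference was 15.1-fold in Dll1- cells (95% interval 3.62 to 63.2, adjusted p = 0.0143) and 19.3-fold in Dll1+ cells (95% interval 4.56 to 81.8, adjusted p = 0.0148). Glycam1 passed the count filter only with the PyMT-Dll1mCh libraries, the group where it was high. Its p-values and calls are therefore not independent of that filter. It was not fitted when Dll1- or Dll1+ libraries were fitted alone.

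Xdh went the other way. It was 484 and 419 against 332 and 247 CPM in Dll1- cells, with a log2 fold change of -0.64 ± 0.23 (adjusted p = 0.0685). In Dll1+ cells it was 590.4 and 604 against 398 and 259 CPM, 1.82-fold lower in PyMT-Dll1mCh (adjusted p = 0.0321). Csn3, Lalba, Wap, Btn1a1 and Csn1s2b were called in neither, with log2 fold changes in Dll1+ cells of -0.46, -0.68, 1.84, 0.03 and 0.04. Wap had an adjusted p of 0.0512 there.

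**Figure D4:**
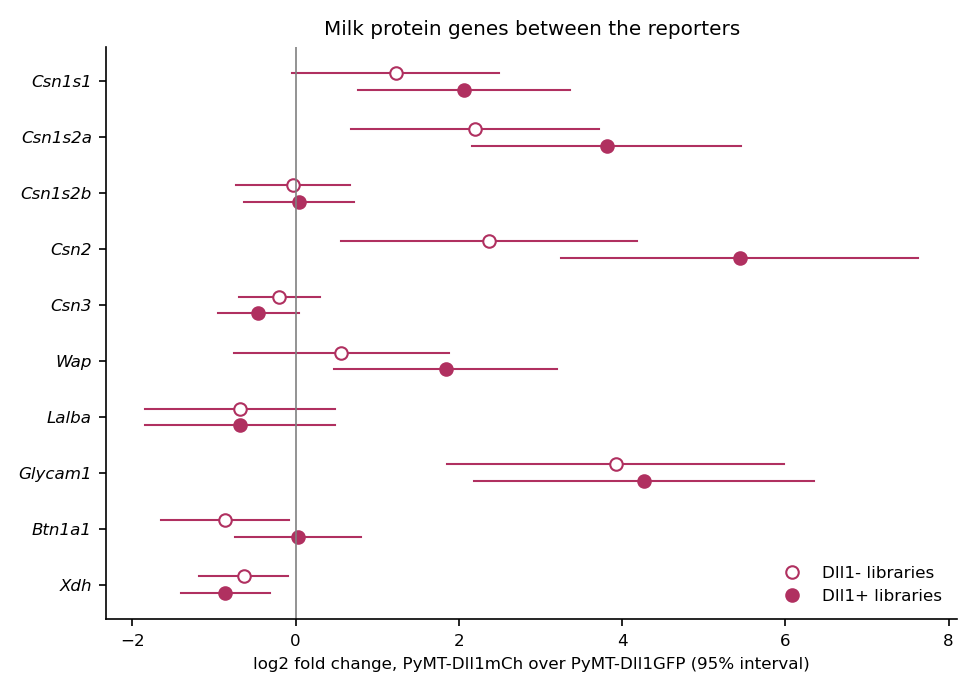
Log2 fold change of PyMT-Dll1mCh over PyMT-Dll1GFP (horizontal axis) with its 95% interval from edgeR, open points for Dll1- and filled points for Dll1+ libraries. Csn2, Csn1s2a, Glycam1 and Csn1s1 lie to the right in both, and Xdh lies to the left in both.

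The reporter groups also differed in markers of other cells. The summed level of 6 fibroblast markers was 984 to 1218 CPM in the PyMT-Dll1GFP and 2978 to 21349 CPM in the PyMT-Dll1mCh libraries, highest in the Dll1- libraries. In Dll1- cells, all 6 fibroblast, 4 endothelial and 4 erythroid markers and the 4 immune markers tested were called higher in PyMT-Dll1mCh. In Dll1+ cells the calls were 4 of 6 fibroblast, 1 of 4 endothelial, 4 of 4 erythroid and 2 of 4 immune markers. Among the 7 basal markers, Dll1- cells of PyMT-Dll1mCh had 2 higher and 1 lower, and Dll1+ cells had 4 higher. Of the 5 luminal progenitor markers, 2 were lower in Dll1- cells (Kit and Itga2) and 2 in Dll1+ cells (Kit and Tspan8). None was called higher, and their median log2 fold change was -1.04 and -0.89. Of the 5 hormone-sensing markers, Areg was called higher in both and Esr1 lower in Dll1+ cells. No list had a marker at 0 in every library. The fibroblast sum of PyMT-Dll1mCh was 2978 and 3231 CPM in Dll1+ cells and 7426 and 21349 CPM in Dll1- cells. The part of any of these cell types in the milk gene differences between reporters was not tested.

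Leaving out 1 library removed calls in places. It also leaves 1 library in a group, so only sizes are given, as ranges of the log2 fold change over the alternative fits. In Dll1- cells these were 3.54 to 4.43 for Glycam1, 1.35 to 3.24 for Csn1s2a and 1.29 to 3.51 for Csn2. In Dll1+ cells they were 5.01 to 6.23 for Csn2, 3.58 to 3.99 for Csn1s2a and 2.93 to 5.41 for Glycam1. Csn1s1 had 1.42 to 2.45 and Xdh -1.25 to -0.59 there. All fold changes of the called genes kept their sign.

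Along the casein cluster the difference between reporters was not uniform. Csn1s1, Csn2 and Csn1s2a, which lie within the first 123 kb, had log2 fold changes of 2.06, 5.44 and 3.81 in Dll1+ cells. Csn1s2b, which starts 19.3 kb past Csn1s2a, had 0.04 and Csn3, a further 101 kb away, had -0.46. The windows of Csn1s1, Csn2, Csn1s2a and Glycam1 held the TTCNNNGAA matches printed above. Windows of Csn1s2b and Csn3 were not read, so within the cluster match and difference cannot be set against each other. The windows of Wap and Lalba held no match. With 6 windows this is a description and was not tested.

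**Figure D5:**
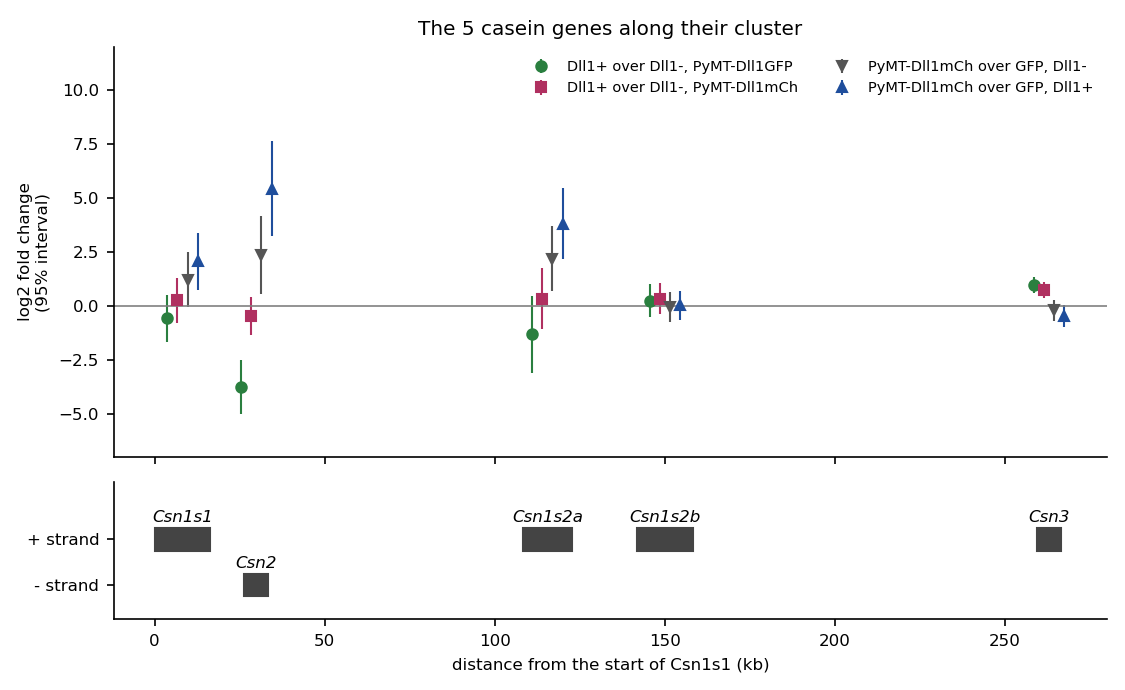
Log2 fold change with 95% interval (upper panel) of the 5 casein genes at their place along the cluster, in kb from the start of Csn1s1, and their extent and strand (lower panel). Triangles are PyMT-Dll1mCh over PyMT-Dll1GFP, circles and squares Dll1+ over Dll1- within a reporter, with markers of a gene set side by side for legibility. The triangles stand highest for Csn2, and those of Csn1s2b and Csn3 lie near or below 0.

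The prolactin pathway upstream of these genes was described with 25 genes of lactogenic hormone signalling, of which 24 were tested. In Dll1+ against Dll1- cells over the 4 mice, 4 were called higher and 5 lower, and their median log2 fold change was -0.04. Prlr, the prolactin receptor, was 166, 148, 59.2 and 65.5 CPM in Dll1- and 83.7, 76.1, 51.0 and 37.3 CPM in Dll1+ cells, lower in 4 of 4 mice (log2 fold change -0.75 ± 0.14, adjusted p = 0.0289). Stat5a went the same way (-0.37 ± 0.08, adjusted p = 0.0321), as did Wnt4, a Wnt ligand induced by progesterone (-2.05 ± 0.23, adjusted p = 0.00798), and the kinase Akt1 (-0.36 ± 0.06, adjusted p = 0.0201). Nfib, a nuclear factor that binds milk gene promoters, rose by 0.45 (SE 0.08, adjusted p = 0.0234). Elf5 had 0.03 ± 0.09 (adjusted p = 0.839). Wap, lower in Dll1+ cells of every mouse, and Csn3, higher in each, stood beside the same lower Prlr and Stat5a. The part of the pathway in either was not tested.

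Within the reporters, 1 of the 24 was higher and 4 lower in PyMT-Dll1GFP, and 2 were higher and 2 lower in PyMT-Dll1mCh mice. In PyMT-Dll1GFP mice Wnt4, the progesterone receptor Pgr and Prlr fell by 2.54, 2.51 and 0.98, and Socs2, a suppressor of cytokine signalling, rose by 0.48. Stat5a, the remaining gene called lower there, fell by 0.47 (SE 0.10, edgeR adjusted p = 0.0351). Elf5 had -0.14 ± 0.09 and was not called. In PyMT-Dll1mCh mice Wnt4 and Akt1 fell by 1.63 and 0.40, and Nfib and Gata3, a luminal transcription factor, rose by 0.57 and 0.38. Prlr and Stat5a were not called in these mice, at -0.51 ± 0.14 and -0.28 ± 0.10 (edgeR adjusted p = 0.0823 and 0.113). Elf5 had 0.21 ± 0.09 there and was not called.

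Between the reporters, PyMT-Dll1mCh libraries had 4 of the 24 genes higher and 12 lower among Dll1- cells (median log2 fold change -0.45), and 3 higher and 7 lower among Dll1+ cells (median -0.20). Prlr was lower in both (log2 fold changes -1.34 ± 0.16 and -0.85 ± 0.16, adjusted p = 0.00229 and 0.0112), and so was Nfib (-1.11 and -0.89). Stat5a was lower in Dll1- cells (-0.56 ± 0.13, adjusted p = 0.0167) and had -0.37 ± 0.13 in Dll1+ cells (adjusted p = 0.0721). Elf5 was called lower in Dll1- cells, at 334 and 256 CPM in PyMT-Dll1mCh against 441 and 433 CPM in PyMT-Dll1GFP libraries. It was not called in Dll1+ cells. Erbb4, a receptor for neuregulins, fell by 1.88 in Dll1- cells, and Socs1 rose by 2.77. Nr3c1, the glucocorticoid receptor, and Stat5b fell by 0.87 and 0.73 in Dll1+ cells. The caseins Csn2, Csn1s2a and Csn1s1 were higher in the PyMT-Dll1mCh libraries, and Prlr and Nfib were lower. Activity of the pathway was not measured, and its part in the casein differences was not tested.

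A second list held 26 other genes of milk secretion and the secretory alveolus, 25 of them tested. Over the 4 mice 4 were higher in Dll1+ cells and 1 lower (median log2 fold change 0.12). Ltf (lactoferrin) rose by 0.75 (SE 0.13, adjusted p = 0.0188), Muc1, a surface mucin, by 0.48 and Cidea, a lipid droplet protein, by 1.15, and Thrsp, a regulator of lipid synthesis, fell by 1.21 (SE 0.17, adjusted p = 0.0149). B4galt1, the catalytic partner of Lalba in lactose synthase, had -0.24 ± 0.07 (adjusted p = 0.0643), opposite in sign to Lalba.

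In PyMT-Dll1GFP mice 4 of the 25 were lower in Dll1+ cells and none was higher. The lower ones were Cel (bile salt-stimulated lipase), Thrsp, Lao1 (an amino acid oxidase of milk) and Olah (the thioesterase that ends fatty acid chains early), which fell by 2.62, 1.57, 1.63 and 2.62. Csn2 and Wap, called lower in the same mice, had log2 fold changes of -3.77 and -1.87 beside them. In PyMT-Dll1mCh mice 6 were higher and 3 lower, with Lpl (lipoprotein lipase) and Thrsp down by 2.47 and 0.85 and Muc1 and Ltf up by 0.69 and 0.91 on the log2 scale. Lpl is also made by adipocytes and other stromal cells, and it was 59.9 and 154 CPM in the PyMT-Dll1mCh Dll1- libraries against 7.05 to 21.1 CPM elsewhere. B4galt1 was not called within either reporter, at -0.29 ± 0.09 in PyMT-Dll1GFP and -0.20 ± 0.09 in PyMT-Dll1mCh mice.

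Between the reporters, PyMT-Dll1mCh libraries had 4 of the 25 genes higher and 4 lower among Dll1- cells, and 7 higher and 4 lower among Dll1+ cells. Muc15, a mucin of the fat globule membrane, was lower in both (-1.96 ± 0.20 and -1.28 ± 0.20), as were Muc1 (-1.01 and -0.60) and the phosphate transporter Slc34a2 (-1.42 and -0.94). Lpl was called higher in Dll1- cells, at 59.9 and 154 CPM against 10.6 and 11.2 CPM in the PyMT-Dll1GFP libraries. B4galt1 was called in neither. In Dll1+ cells Cel, Lao1 and Fabp3 (a fatty acid binding protein) were higher by 1.87, 1.19 and 2.32 on the log2 scale.

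The genes whose pattern over the 8 libraries was most like the mean of the 10 milk protein genes were Dapk3, Gm42845, Gm10020, Pdcl3 and Gm11539, with Pearson r from 0.970 to 0.982 among 18312 genes. The mean was taken over centred log2 CPM, so that Csn2 and Glycam1, which varied most, weighed most. It was -0.97 in the lowest library, PyMT-Dll1GFP Dll1+ of mouse 2, and 0.77 in the highest, PyMT-Dll1mCh Dll1+ of mouse 2. With rank correlation in place of Pearson's, 1 of the 5 remained. Gm42845 is a processed pseudogene inside the casein cluster, at 33.4 to 68.4 CPM. The libraries share mice in pairs and differ in depth, and no test was made.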

How the data were processed

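RNA-seq of 8 sorted tumor cell libraries was used. The authors quantified reads against the GENCODE M20 transcripts of GRCm38.p6 with salmon, used tximport to add them up by gene, and deposited estimated counts, not normalized and all whole. Salmon shares reads of similar transcripts by estimation, which can move counts between overlapping genes. Of the members, Csn3 overlaps 1700066N21Rik on the opposite strand (0 to 1 counts), and Xdh overlaps CT025731.2 on the same strand (6 to 85 counts).

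IDs were matched to GENCODE M21 symbols. Counts were fitted with edgeR 4.0.16 in R 4.3.3 (TMM, filterByExpr, robust quasi-likelihood test). Dll1+ against Dll1- used the mouse as a block, following the study's model of Dll1 status and mouse, with 1 effect or 1 per reporter. The reporters were compared with group means, 2 mice against 2, in a fit of all 8 libraries with no mouse term. The spread behind those p-values therefore treats the 2 libraries of a mouse as independent. Benjamini-Hochberg adjustment ran over 18322 genes, with calls at an adjusted p under 0.05. Pairs came from the mouse identifiers in the labels. Deviations of same-mouse libraries from their group means correlated at -0.05 in PyMT-Dll1GFP and 0.55 in PyMT-Dll1mCh mice. DESeq2 1.42.0, other scaling, filters, blocks and left-out libraries were alternatives. Log2 CPM used a prior count of 2. The fitting code was tested on simulated counts. A floor of 3 counts equals 0.0242 to 0.110 CPM and covers counting error only.

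Named were all 10 members, up to 4 called genes with the lowest p per pathway list and comparison, Prlr, Stat5a, Elf5 and B4galt1 always, Dll1, 3 sort markers, and the 5 most alike genes. Members and lists were chosen with earlier results of these data known.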

Additional observations from a re-analysis of the deposited data

Results flagged for a closer look

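Libraries standing apart were screened with Dixon's ratio, the gap of the farthest sample divided by the range, in 20 groups of 4 libraries, where chance flags about 1 in 20. Among the 4 Dll1- libraries, that of PyMT-Dll1mCh mouse 1 lay far below the others for Csn3 (ratio 0.891) and for Lalba (ratio 0.883) on the log2 CPM scale. Csn3 was 4464 CPM there against 6424 to 6717 CPM, and Lalba was 157 CPM against 403 to 456 CPM. This was also the most deeply sequenced library, with 123907626 counts. The part of depth was not tested.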

How the results depend on the processing

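Of 562 alternative values for single milk protein genes, 531 kept the sign of the reported value, and the 31 that did not belonged to values called in neither fit. A call was lost in 55 and gained in 29. The calls over all tested genes also changed between settings, and are given in brackets as higher and lower, of 18322 genes unless stated. Over the 4 mice, 1 milk gene was called (1279 and 1289). It was 2 with RLE size factors (1366 and 1381) and 6 with DESeq2 (2133 and 2229). Among genes with at least 10 counts in every library it was 2 (1492 and 1438 of 15566). With a mouse left out it was 0 to 1 (198 to 1035 and 179 to 1366). With no replicate block, that is without the pairing by mouse, edgeR called 0 with Dll1 status alone (1 at an unadjusted p under 0.05). It called 0 of all genes there. With group means per reporter it called 1 (498 and 709). The 3 calls in PyMT-Dll1GFP mice (786 and 887) became 0 without the block (3 unadjusted, 93 and 181 over all genes). The 3 calls in PyMT-Dll1mCh mice (1009 and 1145) became 0 without the block (2 unadjusted, 50 and 162 over all genes). They also became 0 when fitted alone (0 and 0 of 19945). Fits within or between reporters that leave 1 mouse or library in a group are not listed. The difference between reporters went from 0 (1 and 12) to 2 with DESeq2 (123 and 417) and 2 with no filter (294 and 849 of 34834). Between reporters in Dll1- cells the 3 calls (3422 and 3279) became 6 with DESeq2 (3834 and 3320). They became 1 with no filter (3988 and 2953 of 34834) and 1 with Dll1- libraries fitted alone (2148 and 2268 of 15598). In Dll1+ cells the 5 calls (2786 and 2826) became 3 with no filter (3121 and 2645 of 34834). No paired analysis between reporters was possible because no mouse carried both. Glycam1 gave no value where every library had to hold 10 counts, nor where Dll1- or Dll1+ libraries were fitted alone. It was 1 of the 3 calls in Dll1- cells, so the fall to 1 call there includes a gene that was not fitted. The order of levels kept 7 of 10 ranks with the longest transcript as length and 8 to 10 with a library left out. The cause of these changes was not tested.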
